A study of Sus scrofa with 16 samples.

Results

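Transcripts of cholesterol synthesis enzymes and of INSIG1, a regulator of the pathway, were followed over 16 arrays of pig subcutaneous adipose tissue. The 16 pigs weighed 20 kg, were fed ad libitum and came from 8 animals of the low-RFI line (RFIneg) and 8 of the high-RFI line (RFIpl), with 1 Agilent 1-colour array for each pig. Residual feed intake (RFI) is the part of an animal's feed intake that its maintenance and growth do not account for, and the lines differ in it. Each line has replicates 5 to 8 and replicates 1 to 4, which are compared below because the arrays differ more by these numbers than by line. The labels do not say what the numbers stand for, and no control other than the opposite line was used. The labels name whole tissue, so fewer cells of a type and less RNA per cell cannot be told apart.

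The genes were HMGCS1, IDI1, FDPS, FDFT1, SQLE, LSS, CYP51, DHCR7 and INSIG1, 9 names in all. Probes were taken whose gene name in the scanner files equals one of these names and whose spots the scanner software marked as well above background on 8 or more of the 16 arrays. This gave 10 probes of 3 genes among the 32097 probes kept: 4 of CYP51, 3 of FDPS and 3 of SQLE. A further 6 probes of 3 genes carry the gene's name only in the description text of the files (3 of INSIG1, 2 of DHCR7 and 1 of IDI1); they passed the same signal limit and are described apart. The other 3 names, HMGCS1, FDFT1 and LSS, were not analysed here.

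Animal cells make cholesterol from acetyl-CoA by way of mevalonate, isoprenoid units, squalene and lanosterol. The genes of the pathway share a control: when membrane sterol is low, SCAP carries SREBP2 to the Golgi, where it is cut and released as a transcription factor, and INSIG1, itself a target gene, holds SCAP back when sterol is high. IDI1 isomerises isopentenyl diphosphate and FDPS joins the units into farnesyl diphosphate. SQLE adds oxygen to squalene, CYP51 removes a methyl group from the sterol ring of lanosterol, and DHCR7 takes part in the final step to cholesterol. Adipose tissue stores much free cholesterol in its fat droplets, and in pigs it is also the main site of fatty acid synthesis.

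The 10 probes are 60 bases long, and the sequences of 5 of them are shown because the agreement of probes below turns on whether they read separate stretches of a transcript. They were copied from the scanner files.
CYP51 A_72_P155691: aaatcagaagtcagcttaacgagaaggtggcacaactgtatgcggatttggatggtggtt
FDPS A_72_P212122: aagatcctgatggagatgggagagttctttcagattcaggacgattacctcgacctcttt
FDPS A_72_P565924: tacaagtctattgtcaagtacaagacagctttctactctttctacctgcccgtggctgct
FDPS A_72_P661524: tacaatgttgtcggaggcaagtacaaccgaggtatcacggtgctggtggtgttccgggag
SQLE A_72_P705210: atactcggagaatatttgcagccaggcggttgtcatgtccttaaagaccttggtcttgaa
The 3 FDPS probes share at most 9 bases in a row between any pair, and the 4 CYP51 probes at most 6, so each is a separate reading. The other pair of SQLE probes, A_72_P088686 and A_72_P444903, share 57 bases in a row and count as a single reading of the gene. A stretch of 30 bases of these overlapping SQLE probes and of the brightest CYP51 probe is given next because it holds AATAAA, the hexamer of the polyadenylation signal, in capitals.
SQLE A_72_P088686: gtgggatctgcaAATAAAatgaagaatcaa
CYP51 A_72_P177531: atccatgtgcaagtccaaAATAAAgtcctt
The hexamer was searched on the probe strand and stood in 3 of the 10 probes, and in 9.6% of the 43603 probes of the array. Its presence is a description of the letters and says nothing of where the transcript ends.

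Signals are given as log2 of the deposited processed intensity minus the 75th percentile of that array, so 0 is the 75th percentile itself and a negative value lies under it. Levels of different probes are not compared, because probes differ in how brightly they bind. Between 68.7% and 80.3% of an array's spots were well above background, and no spot was saturated. The arrays stood on 4 slides, each with 1 array of every combination of line and replicate numbers. Adipocyte markers were present on every array, and each of the 8 listed markers was kept. A few arrays stood apart in markers of other cells. The mean of the 8 skeletal muscle markers was 7.44 log2 units above its mean over arrays in low-RFI replicate 8. The mean of the 4 measured skin epithelium and gland markers was 2.2 above in high-RFI replicate 2 and 3.52 above in high-RFI replicate 6. The mean of the 4 hepatocyte markers was 2.5 above in low-RFI replicate 3 and 2.57 above in high-RFI replicate 8. The means of all marker lists are unscaled, so the markers that vary most weigh most in them and their sizes are not comparable between lists. In the hepatocyte list APOA2 had an SD of only 0.242 in low-RFI and 0.226 in high-RFI pigs. ALB, TTR and SERPINA1 were dim (-3.31, -3.69 and -4.38 on average) and varied more. High-RFI replicate 5 was highest in the macrophage (1.55), T and NK cell (1.60) and interferon (2.40) lists.

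CYP51 was the member with the most probes, and all 4 moved together over the pigs. Its brightest probe, A_72_P177531, read 2.83, 3.40, 2.49, 3.77, 3.04, 3.12 and 2.69 in low-RFI replicates 1 to 5, 7 and 8, with no value for replicate 6, whose spot was an outlier. In high-RFI replicates 1 to 8 it read 3.38, 2.86, 2.90, 3.16, 2.28, 2.63, 2.39 and 2.88. Low-RFI replicates 4 and 2 and high-RFI replicate 1 were the highest pigs, high-RFI replicates 5 and 7 the lowest, and the lines overlapped. Between the 4 probes the Pearson correlation over 15 or 16 arrays was 0.701 to 0.925 in the 6 pairs, and it was 0.682 to 0.929 without the 2 arrays farthest from the median. The lowest of these, between A_72_P440876 and A_72_P155691, had r = 0.70 and Spearman's rho = 0.771 (permutation p = 0.00117 and 0.00075, adjusted p = 0.00187 and 0.0012 over the 16 probe pairs of all genes). That pair had r = 0.273 in replicates 5 to 8 and r = 0.886 in replicates 1 to 4.

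FDPS gave the closest agreement of separate probes. Probe A_72_P212122 read 2.61, 3.08, 2.56, 3.30, 2.72, 2.50, 2.85 and 3.03 in low-RFI replicates 1 to 8. In high-RFI replicates 1 to 8 the same probe read 2.98, 2.76, 3.22, 3.15, 2.06, 2.85, 2.18 and 2.76. High-RFI replicates 5 and 7 were again the lowest and low-RFI replicate 4 again the highest, and the lines overlapped. The 3 pairs of FDPS probes had r = 0.974, 0.973 and 0.978 over 16 arrays, each with a permutation p of 1e-05, the smallest that 100000 resamples can give (adjusted p = 2e-05). Spearman's rho was 0.962 to 0.976, r was 0.951 to 0.972 without the 2 farthest arrays, and within replicates 5 to 8 and within replicates 1 to 4 no pair was under 0.951. For comparison, the median r over the 17745 pairs of kept probes that share a gene name was 0.845.

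SQLE followed another order of pigs. The overlapping probe A_72_P444903, which has a value on all arrays, read 1.26, 0.99, 2.19, 1.55, 1.88, 1.33, 2.09 and 1.25 in low-RFI replicates 1 to 8. In high-RFI replicates 1 to 8 it read 1.497, 1.35, 1.501, 1.63, 0.95, 1.52, 2.09 and 1.30. Low-RFI replicates 3, 7 and 5 and high-RFI replicate 7 were the highest, so a pig that was low in FDPS (high-RFI replicate 7) was high in SQLE. High-RFI replicate 5 was the lowest here too. The 57 shared bases went with r = 0.991 between the overlapping probes (permutation p = 1e-05). The separate probe A_72_P705210 agreed less well, with r = 0.597 and rho = 0.557 over 15 arrays against A_72_P088686 (permutation p = 0.019 and 0.0338, adjusted p = 0.0234 and 0.0416). With A_72_P088686 its r was 0.769 in replicates 5 to 8 and 0.301 in replicates 1 to 4. With A_72_P444903 these were 0.771 and 0.195, and over all arrays the adjusted p of rho was 0.0579, so the value of SQLE in a single pig depends on the probe.

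**Figure D1:**
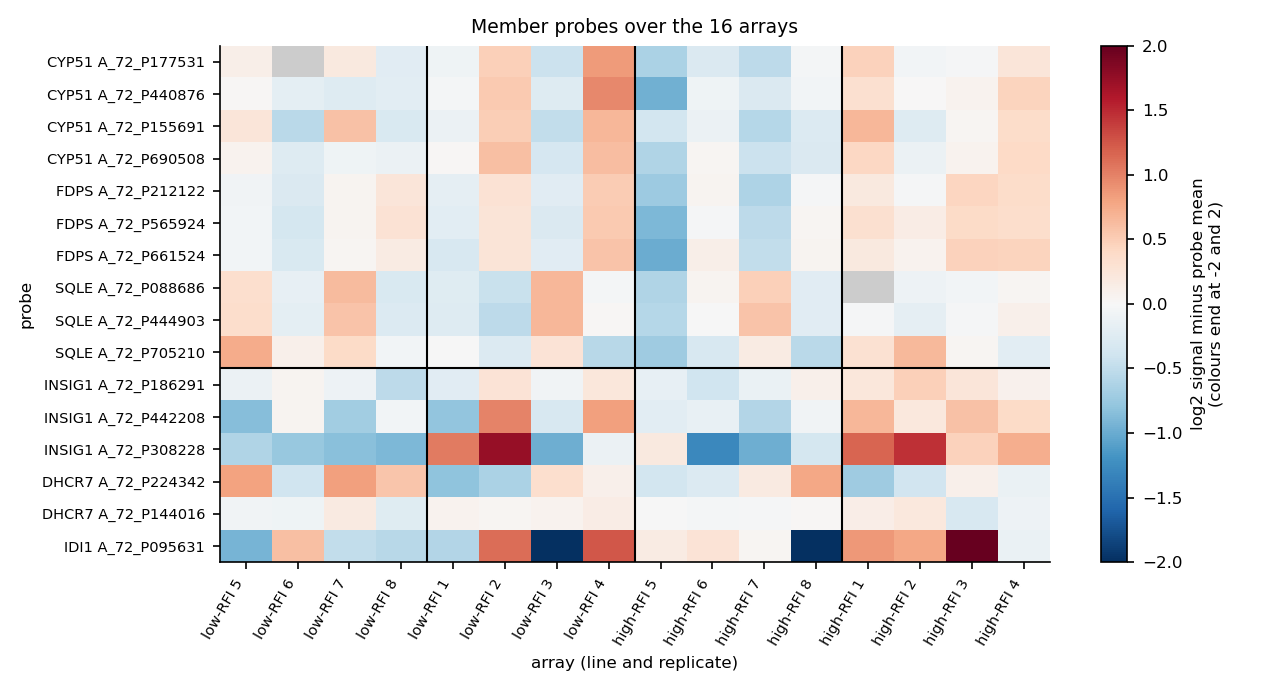
Log2 signal of each member probe minus its mean over arrays (colour), with probes down the page (the 10 chosen by gene name above the horizontal line, the 6 named by description under it) and the 16 arrays across, low-RFI before high-RFI and replicates 5-8 before 1-4 in each line; grey marks a missing value. The 4 CYP51 and 3 FDPS rows change together, the SQLE rows follow another order, and high-RFI replicate 5 is low in all 10 upper rows.

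The probes named by description agreed less. The 3 INSIG1 probes had r = 0.638, 0.667 and 0.54 between them over 16 arrays (permutation p = 0.00783, 0.00466 and 0.0322; adjusted p = 0.0104, 0.00678 and 0.0344), with rho of 0.712, 0.656 and 0.529. Within replicates 5 to 8 the 3 correlations were -0.0844, 0.432 and 0.0734, and within replicates 1 to 4 they were 0.748, 0.422 and 0.268. The pair of DHCR7 probes had r = -0.17 (rho = -0.124, permutation p = 0.532 and 0.649), and A_72_P144016 varied only from -2.78 to -2.25 over all arrays. IDI1 rests on A_72_P095631, which was well above background on 14 arrays and ran from -6.66 in low-RFI replicate 3 to 0.27 in high-RFI replicate 3. That range is far wider than in any other member probe, so its differences carry little precision.

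Across genes, CYP51 and FDPS varied together. Their brightest probes had r = 0.785 and rho = 0.75 over 15 arrays (permutation p = 0.00046 and 0.00182), with adjusted p = 0.0069 and 0.0273 over the 15 pairs of the 6 measured genes. The correlation was 0.653 without the 2 arrays farthest from the median, 0.73 in replicates 5 to 8 and 0.76 in replicates 1 to 4, and 0.791 in low-RFI and 0.828 in high-RFI pigs. No other pair passed in this family. SQLE had r = -0.0654 with CYP51 over 14 arrays and r = -0.0732 with FDPS over 15 (rho = 0.011 and -0.0143, permutation p = 0.824 and 0.797, adjusted p = 0.841 for both). In replicates 5 to 8 these r values were 0.503 and 0.163, and in replicates 1 to 4 they were -0.531 and -0.376. Both r values over all arrays turned positive with normexp background correction, at 0.151 and 0.133. They were further below 0, at -0.369 and -0.267, without the 2 arrays farthest from the median, and -0.466 and -0.397 (adjusted p = 0.28 and 0.308) without 4 of the arrays that stood apart (low-RFI replicate 8 and high-RFI replicates 2, 5 and 6). INSIG1 with CYP51 (r = 0.544, rho = 0.618) and SQLE with DHCR7 (r = 0.546, rho = 0.55) had permutation p = 0.0359 and 0.0367 for r and 0.0158 and 0.0371 for rho, and adjusted p = 0.184 for both r values.

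**Figure D2:**
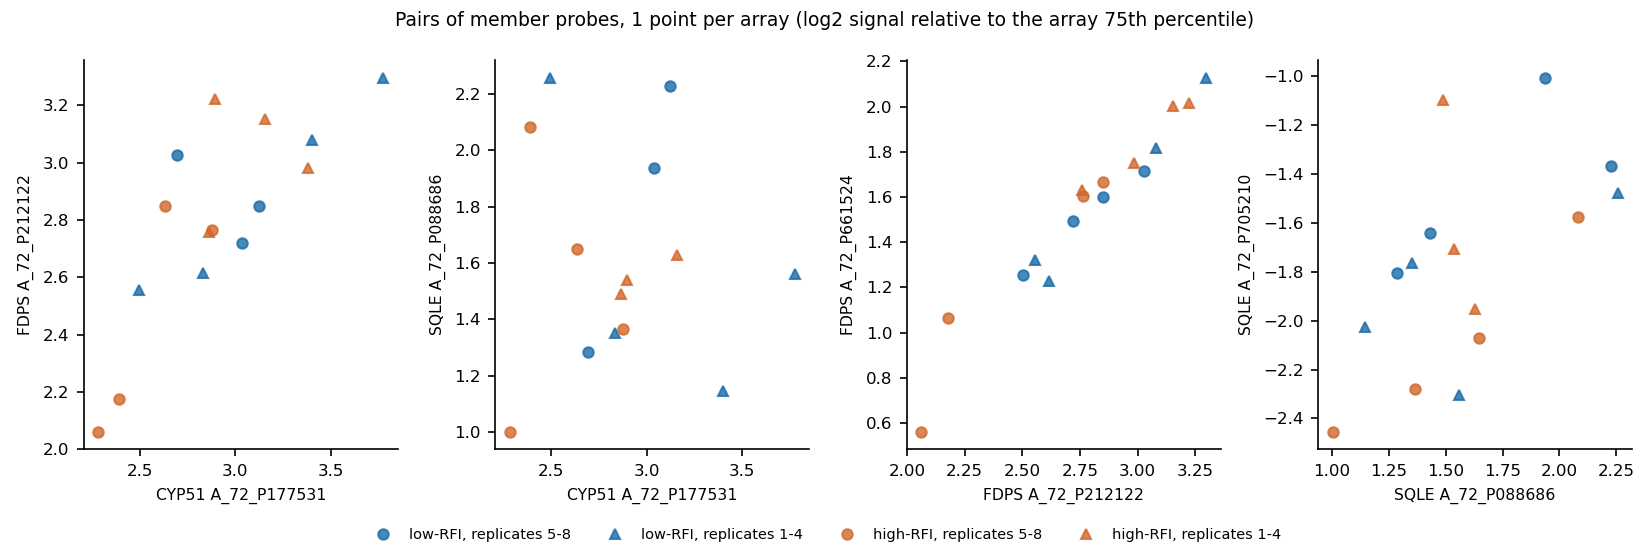
Each point is 1 array, blue for low-RFI and orange for high-RFI pigs, circles for replicates 5-8 and triangles for replicates 1-4, and both axes are log2 signal relative to the array's 75th percentile. From left to right the pairs are CYP51 with FDPS (r = 0.785), CYP51 with SQLE (r = -0.0654), 2 FDPS probes (r = 0.973) and 2 SQLE probes that do not overlap (r = 0.597).

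The mean of the adipocyte marker list moved with CYP51 and FDPS. The mean of the 8 markers (ADIPOQ, PLIN1, LEP, FABP4, CIDEC, LPL, PPARG and CD36) had r = 0.846 and rho = 0.896 with CYP51 over 15 arrays (permutation p = 5e-05 and 2e-05, adjusted p = 0.0012 and 0.00048 over 24 relations of 4 genes with 6 marker lists). It was r = 0.863 in replicates 5 to 8 and 0.836 in replicates 1 to 4. With FDPS it was r = 0.699 and rho = 0.626 over 16 arrays (permutation p = 0.00251 and 0.0111, adjusted p = 0.0301 and 0.0889), with r = 0.82 without the 2 farthest arrays, 0.466 in replicates 5 to 8 and 0.876 in replicates 1 to 4. SQLE had r = 0.0947 and rho = 0.0929 with the adipocyte mean (permutation p = 0.735 and 0.745). The adipocyte mean is unscaled, so the markers that vary most weigh most in it. LEP had an SD of 0.658 in low-RFI and 0.874 in high-RFI pigs, against 0.151 and 0.101 for FABP4. LEP alone had r = 0.795 with CYP51, 0.708 with FDPS and -0.247 with SQLE. Single correlations of the other markers were not examined. When the adipocyte mean was removed from each probe by a linear fit, a step chosen after seeing these values, CYP51 and FDPS had r = 0.529 (permutation p = 0.0432, adjusted p = 0.216). The adipocyte mean ran from -0.285 to 0.351 in low-RFI pigs and from -0.34 to 0.198 in high-RFI pigs, and its part in the levels of CYP51 and FDPS was not tested. The interferon list had r = -0.591 and rho = -0.424 with FDPS (permutation p = 0.0153 and 0.104, adjusted p = 0.116 and 0.417), and r = -0.286 without the 2 farthest arrays. With INSIG1 it had r = -0.573 and rho = -0.771 (permutation p = 0.0194 and 0.00073, adjusted p = 0.116 and 0.00876), with r = -0.694 without the 2 farthest arrays, -0.195 in replicates 5 to 8 and -0.84 in replicates 1 to 4. INSIG1 here is probe A_72_P186291.

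Many other genes were as closely correlated with CYP51 or FDPS as these were with each other. Of 4547 named genes ranked by r with CYP51, FDPS stood at rank 115, and of 4548 ranked by r with FDPS, CYP51 stood at rank 131. The median r over all 10344426 pairs of named genes was 0.0127, and 5% of the pairs were above 0.567. The named gene most like CYP51 was MMAB (r = 0.933, rho = 0.921, n = 15), an enzyme of cobalamin metabolism. Most like FDPS was GPN3 (r = 0.939, rho = 0.859, n = 16), a GTPase. AACS, acetoacetyl-CoA synthetase, stood at rank 5 with FDPS, ACSS2 at rank 8 and PMVK at rank 11. The other pathway genes named below stood lower. Most like SQLE was KCTD20 (r = 0.893, rho = 0.893, n = 15), followed by DDX21 (r = 0.852), an RNA helicase of the nucleolus. These values are descriptions, and all come from the same arrays, which also varied in marker transcripts of several cell types.

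Among 7 other cholesterol enzymes, the correlations differed by gene. All correlations of SQLE with other genes and with marker lists rest on probe A_72_P088686, which has no value in high-RFI replicate 1. The separate probe A_72_P705210 had r = 0.597 with it, and 0.301 in replicates 1 to 4. Correlations of other genes with A_72_P705210 were not examined. PMVK, phosphomevalonate kinase of the mevalonate steps, had r = 0.822 with CYP51, 0.894 with FDPS and -0.128 with SQLE. MVK, the kinase before it, had r = 0.562, 0.692 and -0.384 in the same order. MSMO1, the sterol methyl oxidase that acts after CYP51, had r = 0.444 and 0.384 with CYP51 and FDPS and 0.702 with SQLE. NSDHL, which acts on the same methyl groups, had r = 0.178, 0.183 and 0.584. ACAT2, which makes acetoacetyl-CoA at the start, had r = 0.508, 0.692 and 0.345. SC5D, the sterol desaturase, had r = 0.587, 0.423 and 0.164. HSD17B7, a sterol ketoreductase, had r = -0.433, -0.402 and 0.297.

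Of the 12 measured genes of fatty acid synthesis, 8 had a higher r with both CYP51 and FDPS than with SQLE. Over the 12 the median r was 0.602 with CYP51, 0.622 with FDPS and 0.0753 with SQLE, and the lowest was -0.604, -0.549 and -0.595. The 5 given here were picked after their values were seen. ACSS2, which activates acetate, had r = 0.828 with CYP51, 0.90 with FDPS and 0.00695 with SQLE. ME1, the malic enzyme that supplies NADPH, had r = 0.828, 0.862 and -0.056, and SCD, the stearoyl-CoA desaturase, had r = 0.744, 0.86 and -0.076. FASN, the fatty acid synthase, had r = 0.768, 0.813 and -0.024, and ACLY, which makes cytosolic acetyl-CoA from citrate, had r = 0.565, 0.537 and 0.29. The transcript of SREBF2, which encodes SREBP2, had r = 0.0242 with CYP51, -0.0337 with FDPS and 0.00737 with SQLE.

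**Figure D3:**
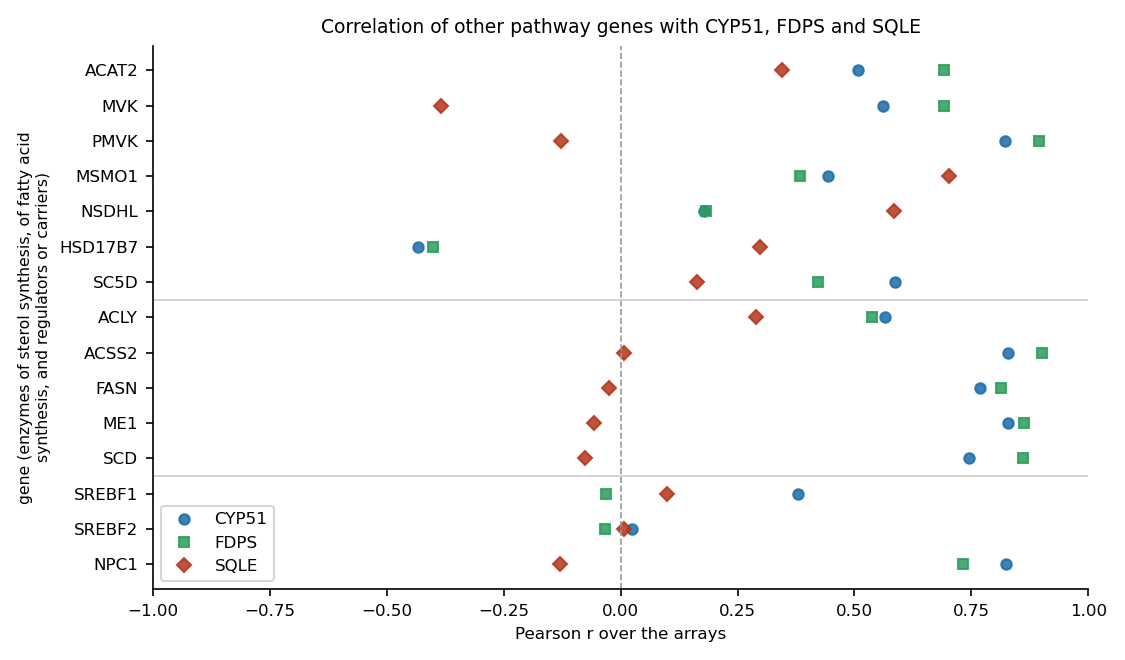
Pearson r over the arrays (horizontal axis) of 15 genes with CYP51 (blue circles), FDPS (green squares) and SQLE (red diamonds); grey lines part 7 other sterol enzymes, 5 enzymes of fatty acid synthesis, and regulators or carriers. For PMVK, ACSS2, FASN, ME1 and SCD the circles and squares lie above 0.7 and the diamonds near 0. For MSMO1, NSDHL and HSD17B7 the diamond lies highest. The diamonds rest on SQLE probe A_72_P088686 alone.

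The 10 named genes most like the mean of the centred CYP51, FDPS and SQLE signals came from several functions. They were DNAL1 (r = 0.882), a dynein light chain, SDR39U1 (0.871), OLF42-3 (0.87), TMLHE (0.858), which starts carnitine synthesis, ACOT6 (0.855), an acyl-CoA thioesterase, NDUFB8 (0.854), a subunit of respiratory complex I, KLF8 (0.853), AGK (0.852), a mitochondrial lipid kinase, STX7 (0.845) and HDDC3 (0.844). Spearman's rho ran from 0.718 for SDR39U1 to 0.871 for ACOT6, over 15 or 16 arrays. None of these 10 is among the 10 found after the line and replicate means were removed, where PSME3 led with r = 0.90.

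The line comparison asks whether these transcripts differ between pigs of low and high residual feed intake. All 10 probes had a higher mean in the low-RFI line, by 0.03 to 0.24 log2 units, and none passed. CYP51 A_72_P177531 averaged 3.05 ± 0.435 in low-RFI pigs (SD, n = 7) and 2.81 ± 0.368 in high-RFI pigs (SD, n = 8). Its difference, 0.24 with a standard error of 0.198, did not pass (limma unadjusted p = 0.243). FDPS A_72_P212122 averaged 2.83 ± 0.283 in low-RFI and 2.75 ± 0.423 in high-RFI pigs, a difference of 0.08 (95% interval -0.28 to 0.45). SQLE A_72_P088686 averaged 1.65 ± 0.434 in low-RFI (n = 8) and 1.54 ± 0.325 in high-RFI pigs (n = 7), a difference of 0.11 (95% interval -0.30 to 0.52). By limma 0 of the 10 probes passed, where 0 of the 32097 probes (0%) passed over the whole array, and 0 of 10 had an unadjusted p under 0.05 where 3.68% of all probes did. Probes of a gene share a transcript, and 50% of all probes had a difference above 0, so the common sign of the 10 is that of 3 genes. In 7 of the 10 probes the sign turned under 1 or more of 27 alternative settings, in 6, 5 and 3 settings for the FDPS probes A_72_P661524, A_72_P565924 and A_72_P212122.

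The 3 INSIG1 probes had lower means in low-RFI pigs, with differences of -0.11 for A_72_P186291, -0.21 for A_72_P442208 and -0.35 for A_72_P308228, each with limma adjusted p = 1. DHCR7 differed by 0.20 and 0.03 and IDI1 by -0.71 with a standard error of 0.752, again with adjusted p = 1. The intervals leave room for changes of moderate size. For CYP51 A_72_P177531 the 95% interval of the difference ran from -0.18 to 0.66. The 4 slides gave differences of 0.253, 0.361, -0.28 and 0.348 for that probe and 0.0474, 0.257, -0.137 and 0.169 for FDPS A_72_P212122, so both were of the opposite sign on 1 slide.

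The second comparison sets replicates 5 to 8 of both lines against replicates 1 to 4, with line in the model. Over the whole array 1662 of 32097 probes (5.18%) passed in this comparison, 640 higher (1.99%) and 1022 lower (3.18%) in replicates 5 to 8. All 4 CYP51 probes and all 3 FDPS probes had lower means in replicates 5 to 8, by -0.34 to -0.51 and by -0.34 to -0.37 log2 units, and 0 of these 7 passed by limma. The 3 SQLE probes differed by 0.06, 0.05 and -0.05. In this comparison 8 of the 10 probes had a difference under 0, as did 54.8% of all probes. In all, 4 of the 10 probes had an unadjusted p under 0.05, where 23.5% of all probes did. These were CYP51 A_72_P690508 and A_72_P440876 and FDPS A_72_P212122 and A_72_P565924. The 10 probes are of 3 genes and probes of a gene share a transcript, so they are not 10 separate readings beside these shares.

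CYP51 A_72_P440876 came closest to passing. It read 1.91, 1.69, 1.63 and 1.68 in low-RFI replicates 5 to 8, against 1.84, 2.41, 1.63 and 2.84 in low-RFI replicates 1 to 4. In high-RFI pigs it read 0.92, 1.79, 1.59 and 1.83 in replicates 5 to 8, against 2.20, 1.89, 1.95 and 2.33 in replicates 1 to 4. All high-RFI pigs of replicates 5 to 8 were lower than the other 4 of their line, whereas the low-RFI pigs overlapped. The share of all probes that separate in this way within a line was not counted, so this only describes the values. The difference was -0.51 with a standard error of 0.17 (limma adjusted p = 0.0882). For FDPS A_72_P212122 the means were 2.62 ± 0.343 in replicates 5 to 8 and 2.96 ± 0.282 in replicates 1 to 4 (SD, n = 8 each), a difference of -0.34 with a standard error of 0.156 (limma adjusted p = 0.203). Within low-RFI pigs the 3 FDPS probes gave -0.11, -0.09 and -0.11, and within high-RFI pigs -0.57, -0.66 and -0.62. For CYP51 A_72_P177531 the differences were -0.17 in low-RFI and -0.53 in high-RFI pigs. The lines' set differences were not shown to differ (limma adjusted p of the FDPS interaction 0.76 to 0.79). The 4 slides gave -0.183, -0.296, -0.516 and -0.364 for FDPS and -0.513, -0.189, -0.434 and -0.551 for CYP51 A_72_P177531, all in 1 direction. For SQLE A_72_P088686 the slides gave 0.792, 0.0497, -0.188 and -0.223.

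All 3 INSIG1 probes had lower means in replicates 5 to 8, and 1 of them passed. A_72_P308228 read -0.47, -0.63, -0.71 and -0.78 in low-RFI replicates 5 to 8, against 1.16, 1.87, -0.86 and -0.0004 in low-RFI replicates 1 to 4. In high-RFI pigs it read 0.31, -1.16, -0.85 and -0.23 in replicates 5 to 8, against 1.29, 1.58, 0.59 and 0.85 in replicates 1 to 4. Low-RFI replicate 3 alone kept the sets from separating in the low-RFI line, and the high-RFI sets did not overlap. Here too the share of all probes that separate within a line was not counted. The difference was -1.19 within low-RFI and -1.56 within high-RFI pigs, and neither passed alone (limma adjusted p = 0.366 and 0.0946). Over both lines the difference was -1.38 with a standard error of 0.327, a level 2.59 times lower in replicates 5 to 8 (limma adjusted p = 0.0296). The 4 slides gave -2.52, -1.45, -0.739 and -0.797. Without any 1 of 8 single arrays (low-RFI replicates 2 and 7, high-RFI replicates 1, 2, 4, 6, 7 and 8) the difference was -1.18 to -1.40 and the limma adjusted p 0.0502 to 0.0591, and with normexp background correction they were -1.21 and 0.146. The other INSIG1 probes did not pass, A_72_P442208 with -0.64 (SE 0.232, limma adjusted p = 0.112) and A_72_P186291 with -0.32 (SE 0.11, adjusted p = 0.0996). So 1 of the 6 probes named by description passed, against 5.18% of all probes.

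DHCR7 A_72_P224342 went the other way, with 0.53 (SE 0.233, limma adjusted p = 0.184), and its partner A_72_P144016 gave -0.06. IDI1 gave -0.95 with a standard error of 0.737. Neither gene passed. Over the brightest probes of CYP51, FDPS and SQLE the median difference was -0.34, beside -0.03 over all 32097 probes.

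**Figure D4:**
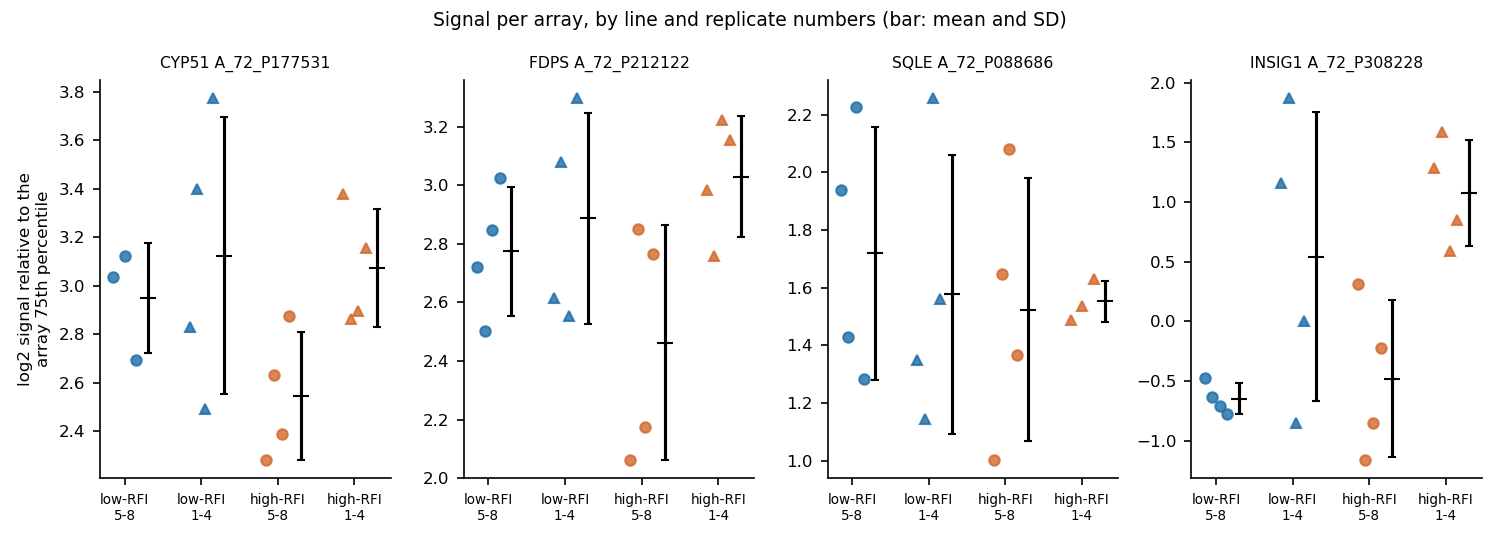
Log2 signal relative to the array's 75th percentile (vertical axis, which does not start at 0) for 4 probes; each point is 1 array, blue for low-RFI and orange for high-RFI, circles for replicates 5-8 and triangles for replicates 1-4, and the black bars give mean and SD. CYP51 and FDPS are lowest in high-RFI replicates 5-8, and SQLE overlaps in all groups. INSIG1 A_72_P308228 has a lower mean in replicates 5-8 in both lines, with overlap in low-RFI, and did not pass within either line alone.

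Some lists of cell markers leaned 1 way between the sets, though no listed marker passed over both lines together. The adipocyte list had a median difference of -0.123 over its 8 markers, 6 of them lower in replicates 5 to 8, and the interferon list a median of 0.444, all 6 higher, with 0 called in either. The endothelium list had a median of -0.198, with 4 of 5 lower, 2 of them with an unadjusted p under 0.05 and 0 called. PECAM1 came nearest of these, at -0.34 (limma adjusted p = 0.0543). The muscle list had a median of 1.06, all 8 higher in replicates 5 to 8, which hold low-RFI replicate 8. Over all probes 54.8% were below 0 and 5.18% were called. Within high-RFI pigs alone the adipocyte marker LEP did pass, with a set difference of -1.56 (limma adjusted p = 0.0465). Within low-RFI pigs LEP gave -0.09, and over both lines -0.83 (limma adjusted p = 0.119). The share of all probes that passed within high-RFI pigs is not given here. The part of the markers in the differences of the sterol genes was not tested. Without low-RFI replicate 8 and high-RFI replicates 2, 5 and 6, the INSIG1 probe A_72_P308228 gave -1.27 (limma adjusted p = 0.119), and the median over CYP51, FDPS and SQLE was -0.266.

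The last comparison asks whether the line difference itself differs between the sets. By limma 0 of 32097 probes (0%) passed, and 6.81% had an unadjusted p under 0.05, as 1 of the 10 member probes did. For all 10 probes the line difference was more positive in replicates 5 to 8, by 0.11 to 0.98. Of all probes 50.3% had a positive value. The sign was not particular to the members. It was positive in 10 of the 12 fatty acid synthesis genes (median 0.415) and 7 of the 8 adipocyte markers (median 0.324). Among the 8 other cholesterol synthesis enzymes 5 were positive, and in the interferon list 0 of 6 were. The 10 probes are of 3 genes, and probes of a gene share a transcript. Their sign turned in 4 of 26 alternative settings for CYP51 A_72_P440876 and in 1 for A_72_P690508. For SQLE A_72_P444903 it turned in 2 and for A_72_P088686 in 1, and the others kept it. The member probe with an unadjusted limma p under 0.05 was SQLE A_72_P705210. It read -1.005, -1.64, -1.37 and -1.81 in low-RFI replicates 5 to 8, against -2.45, -2.07, -1.58 and -2.28 in high-RFI replicates 5 to 8. In replicates 1 to 4 it read -1.76, -2.02, -1.48 and -2.30 in low-RFI, against -1.44, -1.09, -1.71 and -1.95 in high-RFI pigs. The difference between the line differences was 0.98 with a standard error of 0.346 (limma adjusted p = 0.708), and the overlapping SQLE probes gave 0.17 for both. The 3 FDPS probes gave 0.45, 0.57 and 0.52, with limma adjusted p of 0.76 to 0.79.

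**Figure D5:**
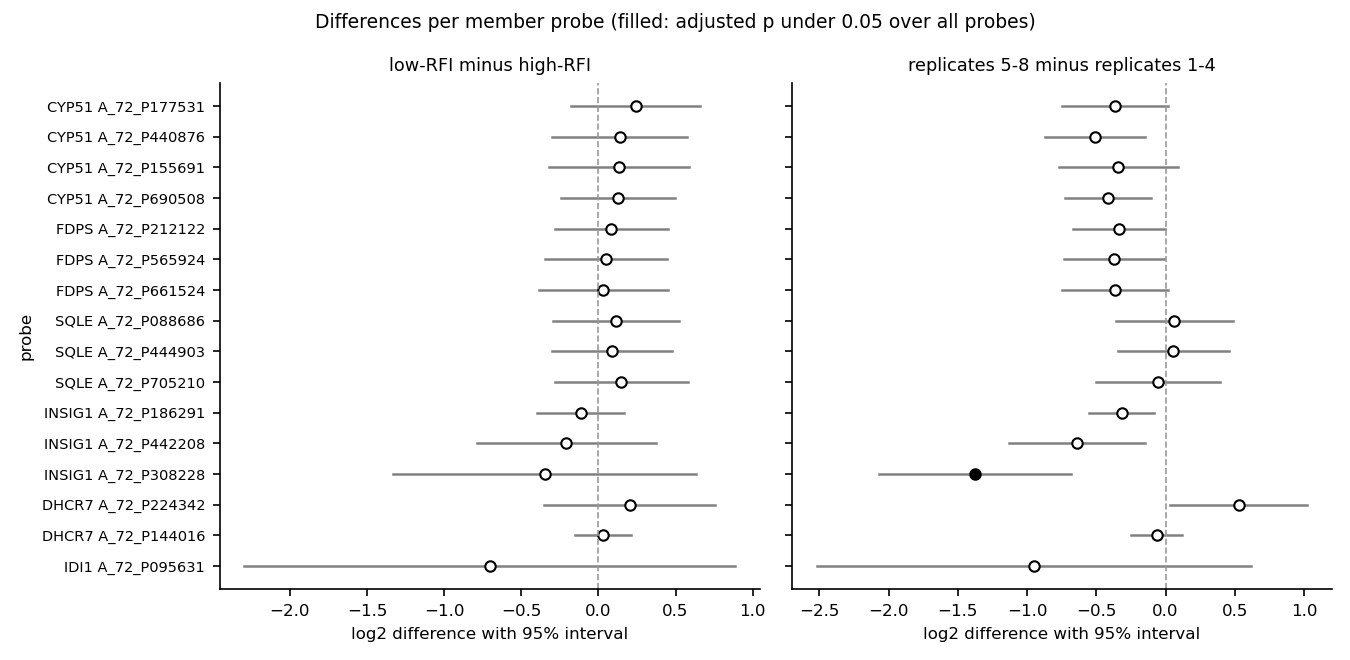
Log2 difference (point) with its 95% interval (line) for each member probe, low-RFI minus high-RFI at the left and replicates 5-8 minus replicates 1-4 at the right; filled points have a limma adjusted p under 0.05 over all probes. All intervals at the left include 0, and INSIG1 A_72_P308228 at the right is the single filled point.

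The lists of genes around the pathway hold 47 measured genes, each read by its brightest probe. Of these 1 (2.13%) passed between the sets, where 5.18% of all probes did, and 34 had a difference below 0, where 54.8% of all probes did. The shares over all named genes, with 1 probe each, were not counted. Of the 8 other cholesterol synthesis enzymes 0 passed in any of the 3 comparisons, and those with the smallest p between the sets were SC5D (-0.26, SE 0.111, limma adjusted p = 0.165) and PMVK (-0.31, SE 0.156, adjusted p = 0.242). Of the 7 measured genes of sterol sensing 0 passed, RNF139 (an ER ubiquitin ligase) giving 0.17 and PGRMC2 -0.27. Of the 12 genes of cholesterol uptake and trafficking 0 passed, and NPC1, which moves cholesterol out of lysosomes, was lowest in p with -0.82 (SE 0.241, limma adjusted p = 0.0603), followed by VLDLR, a lipoprotein receptor, with -0.48. Among the 7 genes of esterification and efflux, NR1H3, which encodes the oxysterol receptor LXR alpha, was higher in replicates 5 to 8 by 0.52 (SE 0.106, limma adjusted p = 0.0176). Of the 12 fatty acid synthesis genes 0 passed, with SCD at -0.77 (limma adjusted p = 0.0565) and ME1 at -1.30 (adjusted p = 0.0803). Of the steroidogenic list, STAR gave -0.95 and CYP11A1 -0.25, and neither passed.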

How the data were processed

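Each of the 16 arrays came as scanner output of Agilent Feature Extraction 10.7.3.1, per the file headers. The deposited processed intensity is, per the file headers, the software's own background-subtracted and detrended signal, and the mean and background intensities carried no correction. The deposited value table holds log2 values that equal the log2 processed signal minus a median over the spots it lists; it served as an alternative. The submitters' processing notes list R 2.10.0.

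Outlier spots were left out, spots of a probe averaged, and the log2 processed signal taken minus the array's 75th percentile over non-control spots. Probes well above background on at least 8 arrays and with at least 6 values in each line were kept. Differences were fitted with limma 3.58.1 in R 4.3.3, and p-values were adjusted (Benjamini-Hochberg) over all 32097 probes; correlations used 100000 permutations (two-sided). The fits were tested on simulated data. Genes are named from the files or, by accession, from RefSeq's Sscrofa11.1 gene table, and 1 probe a gene (brightest on average) stands for it. From each other list the genes that passed were named, otherwise the 2 with the smallest p between the sets. The 10 genes most like the members' mean were named too. The correlations named for single pathway genes, LEP, MMAB, GPN3, AACS, KCTD20 and DDX21 were chosen after values were seen. Members and lists were chosen with earlier results of these data known. The labels do not state the breeding of the pigs beyond their line. The p-values rest on the variation between these samples, and the number of arrays limits precision. Values of some other genes of the pathway are not reported here.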

Additional observations from a re-analysis of the deposited data

How the results depend on the processing

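The alternatives were normexp background correction, quantile or array-median scaling, no filter or a filter on all 16 arrays, slide or replicate number as a block, array weights, the deposited value table, leaving out 4 arrays (low-RFI replicate 8, high-RFI replicates 2, 5 and 6) and leaving out each array. Between the lines no member probe passed under any of them, and over all probes the count was 0 throughout, except that leaving out 1 array gave 0 to 1. FDPS A_72_P212122 turned lower in low-RFI with array weights (-0.0416) and without the 4 arrays (-0.0577), and ran from -0.0138 to 0.152 when 1 array was left out. The interaction had 0 calls but for 1 with the replicate block, and with the block the set comparison had 1838 calls. Same-numbered arrays of the lines deviated with r of -0.295 to 0.32 and 1 of 8 was best with its own number. No pairing by number was thus seen in the signals. Weak likeness of signals cannot settle whether the pigs were paired, and the labels do not say.

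Between the sets the 1662 calls became 17 with normexp, 865 without the filter on dim probes, 5351 with array weights and 0 without the 4 arrays (6398 with unadjusted p under 0.05 in limma). Leaving out 1 array gave 603 to 4790. SQLE A_72_P088686 ran from -0.0278 to 0.17 in those fits. CYP51 A_72_P177531 stayed between -0.467 and -0.266 and FDPS A_72_P212122 between -0.411 and -0.26, with 0 calls in 27 alternatives. CYP51 A_72_P440876 and A_72_P690508 passed in 2 of the 27, INSIG1 A_72_P442208 in 2, FDPS A_72_P565924 in 1, and INSIG1 A_72_P308228 in 17 (limma adjusted p of 0.00192 to 0.146). INSIG1 A_72_P186291 passed with array weights (-0.319, adjusted p = 0.0428). The median over CYP51, FDPS and SQLE was -0.411 to -0.26. The 12 probe pairs of these genes all passed by Pearson's r, and 10 or more did under the alternatives. CYP51 and FDPS had r of 0.711 to 0.843, and 0.529 (adjusted p = 0.216) with the adipocyte mean removed. SQLE had r = 0.151 with CYP51 and 0.133 with FDPS under normexp, and -0.466 and -0.397 without the 4 arrays. The causes were not tested. Protein and promoter sequences were not used here, so no motif was searched in promoters. The numbers of arrays and dim probes such as IDI1 A_72_P095631 limit what could be seen.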
